A study of Mus musculus with 6 samples.

Results

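The mRNAs of 10 antioxidant enzymes were followed through the maturation of mouse skeletal muscle: the superoxide dismutases Sod1, Sod2 and Sod3, the catalase Cat, the glutathione peroxidases Gpx1, Gpx3 and Gpx4, the peroxiredoxins Prdx3 and Prdx5, and the thioredoxin reductase Txnrd2. They were taken by gene symbol and are 10 of the 23367 entries of the deposited gene table. Polyadenylated RNA of gastrocnemius muscle, a calf muscle, came from wild type FVB mice at embryonic day 18.5 (E18.5), postnatal days 2, 14 and 28 (PN2, PN14 and PN28) and 22 weeks (adult). There were 6 libraries, with replicates 1 and 2 at PN14 and a single library at every other stage. The E18.5 library was a pool of male and female mice and the PN2 library a pool of mice labelled male, while each later library came from a single male. The RNA is that of the whole muscle, in which fewer cells of a type and less RNA per cell cannot be told apart.

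Superoxide, formed as a by-product of respiration and by oxidases, is turned into hydrogen peroxide by superoxide dismutases: Sod1 with copper and zinc in the cytosol and intermembrane space, Sod2 with manganese in the mitochondrial matrix, and Sod3 with copper and zinc outside the cell. Hydrogen peroxide is then removed by catalase in peroxisomes, by glutathione peroxidases with glutathione as reductant, and by peroxiredoxins, which thioredoxin and thioredoxin reductase recharge. In muscle, contraction and oxidative metabolism both produce these oxidants, and the mitochondrial enzymes work next to the respiratory chain.

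Each library held between 125402932 and 157868359 counts on genes. The labelled tissue was borne out by its markers, since Acta1, the skeletal muscle actin, was at 11979 FPKM or more in every library and the 6 muscle fibre markers summed to between 32319 and 128504 FPKM. FPKM are fragment counts scaled to gene length and library size, on which different genes can be compared. They are not adjusted for a few very abundant genes, however, and the top 20 genes by count made up 16.03% of the E18.5 library but 36.9% of the adult one, leaving a smaller share to all other genes. Changes between stages are therefore given in CPM, counts scaled to a common library total, after TMM normalization, which sets the median gene near no change. Under library size alone the median of all genes on the log2 scale was -0.66 from PN2 to PN14, -0.92 from PN2 to PN28 and -1.08 from E18.5 to adult, against -0.01, -0.04 and -0.05 with TMM. Whether an enzyme was higher or lower at a later stage depended on this choice for several members, and such cases are named below.

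Stages were compared with edgeR's quasi-likelihood test across the 16882 genes that passed a filter on low counts, among them all 10 enzymes. A gene was called as rising or falling at a Benjamini-Hochberg adjusted p under 0.05 and a difference of at least 2-fold. The spread comes from the PN14 pair alone, so the test assumes that every stage varies as these 2 mice do. Between them the enzymes differed by 1.02-fold (Gpx3 and Cat) to 1.29-fold (Txnrd2) in TMM-normalized CPM.

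Of the 6 calls over the 4 consecutive intervals, 5 belonged to the interval from PN2 to PN14. In it 5 of the 10 enzymes rose and none fell: Sod2, Prdx3, Prdx5, Txnrd2 and Gpx4. Of all genes tested, 23.0% were called in this interval and 11.8% were called as rising. From E18.5 to PN2 no enzyme was called by the quasi-likelihood test, where 0.0296% of all genes were called. At an unadjusted p under 0.05 there was 1 of the 10 (Cat, which edgeR's exact test called), and 1121 of the 16882 genes tested. From PN14 to PN28 again none was called by the quasi-likelihood test, where 0.0178% of all genes were called. At an unadjusted p under 0.05 there was 1 of the 10 (Gpx3, which edgeR's exact test and DESeq2's Wald test both called), and 1420 of the 16882 genes tested. From PN28 to adult 1 enzyme rose, Gpx3, and none fell, where 0.521% of all genes were called and 0.160% were called as rising.

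Over longer spans, from PN2 to PN28, which shares its first library with the PN2 to PN14 comparison, the count was again 5 rising and 0 falling, for the same 5 enzymes (27.0% of all genes called, 14.3% rising). From E18.5 to adult 7 rose, with Cat and Gpx3 added, and none fell (44.9% of all genes called, 21.4% rising). The median log2 fold change of the enzymes was 0.88 from PN2 to PN14, 1.03 from PN2 to PN28 and 1.54 from E18.5 to adult. Scaled to library size alone, the same medians were 0.22, 0.15 and 0.52, and fewer enzymes passed. They were Sod2 from PN2 to PN14, Sod2 from PN2 to PN28, Gpx3 from PN28 to adult, and Sod2, Gpx3 and a falling Sod3 from E18.5 to adult. Of the 16882 genes tested, that scaling called 5825 from PN2 to PN14, with 854 of them rising. It called 7151 from PN2 to PN28 (852 rising), 868 from PN28 to adult (141 rising) and 9047 from E18.5 to adult (1347 rising).

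Counted without a test, a difference of at least 2-fold was seen for 1 enzyme from E18.5 to PN2 (Cat, against 3.44% of the genes that reached 1 CPM), 5 between PN2 and PN14 (26.9%), 1 between PN14 and PN28 (Gpx3, 3.35%), 1 between PN28 and adult (Gpx3, 10.2%), 5 between PN2 and PN28 (33.9%) and 7 between E18.5 and adult (49.6%). The PN2 to PN14 count leaned on replicate 1, since without that library it was 3, with Gpx4 at 0.85 and Txnrd2 at 0.99 on the log2 scale.

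**Figure D1:**
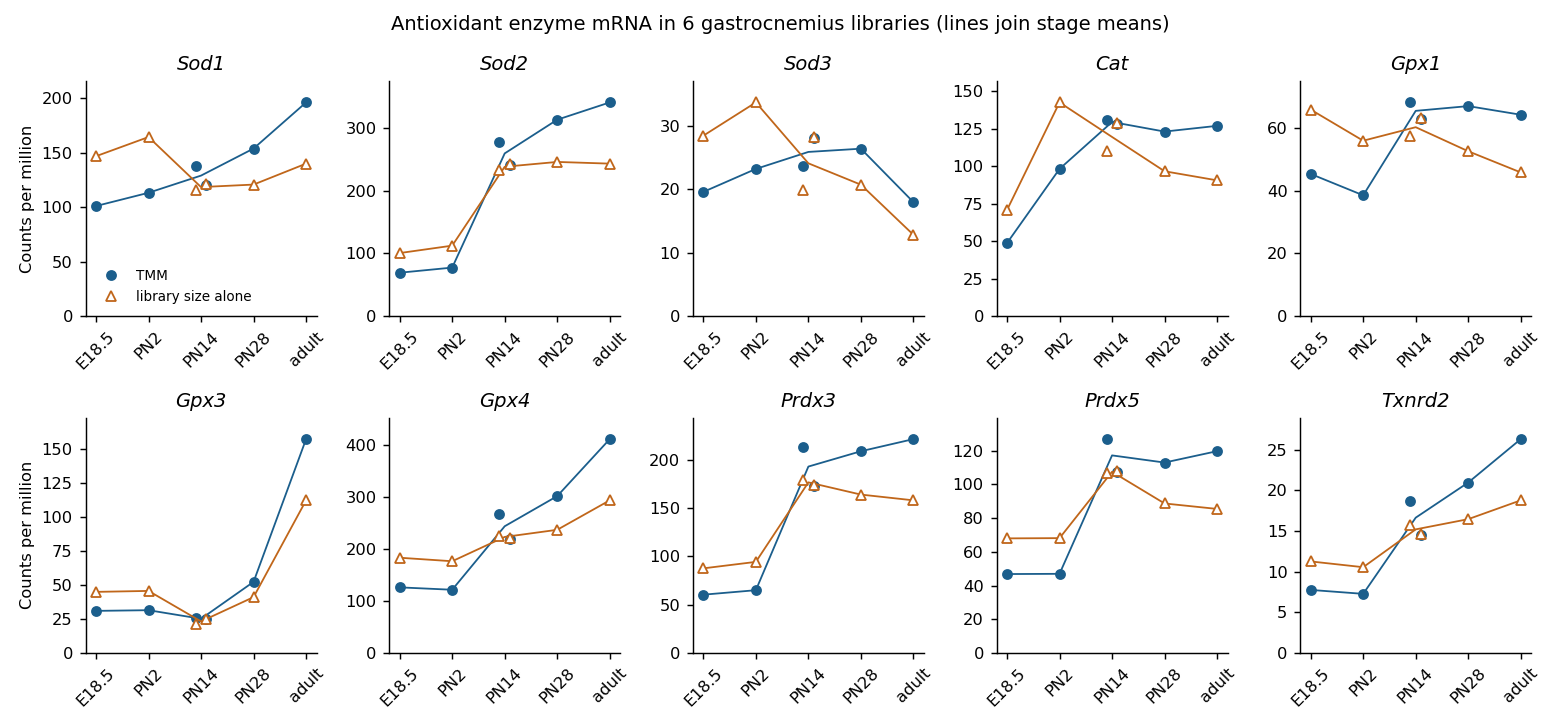
CPM (vertical axes, from 0) of the 10 enzymes in the 6 libraries by stage (horizontal axes), with TMM normalization (filled circles) and with library size alone (open triangles); lines join stage means and PN14 has 2 points. Sod2, Prdx3 and Prdx5 step up between PN2 and PN14 on both scales, Gpx3 is lowest at PN14 and highest in the adult on both, and Sod1, Sod3 and Cat move in different directions on the 2 scales after PN2.

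**Figure D2:**
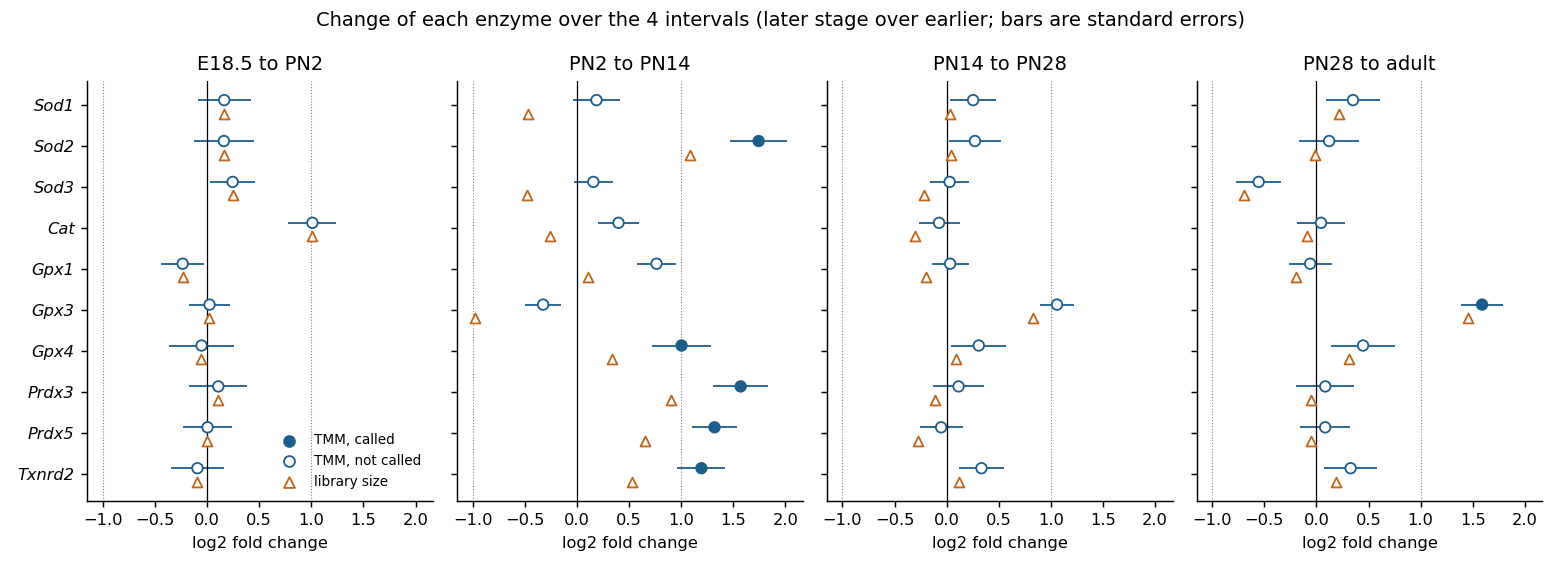
Log2 fold change of each enzyme in the 4 consecutive intervals (later over earlier stage), with TMM normalization and its standard error (circles, filled where called) and with library size alone (triangles); dotted lines mark 2-fold. The 5 called enzymes of the PN2 to PN14 panel lie between 1.004 and 1.74 with TMM and all remain above 0 with library size alone.

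Of the superoxide dismutases, the mitochondrial Sod2 rose while the cytosolic Sod1 was not called in any of the 6 comparisons. Sod2 is encoded on chromosome 17 (chr17:13200705-13210985 of mm9, used for all gene positions here, plus strand, 5 exons). Its level was 26.6 FPKM at E18.5 and 29.7 at PN2, then 61.7 and 64.2 for PN14 replicates 1 and 2, 65.0 at PN28 and 64.3 in adult muscle. The 2 perinatal libraries were thus low and the 4 later ones high and close together. In TMM-normalized CPM the step was from 77.4 at PN2 to 259 ± 25.4 (SD, n = 2) at PN14, a log2 fold change of 1.74 (SE 0.274, adjusted p = 0.00982). Sod2 is the enzyme that was also called with library size alone in this interval, at 1.08 (adjusted p = 0.00423). From E18.5 to adult it rose by 2.30 on the log2 scale (SE 0.304, adjusted p = 0.00250).

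Sod1 (chr16:90220987-90226567, plus strand, 5 exons) was the most abundant of the 10 enzymes at E18.5, with 247 FPKM, and at PN2, with 277 FPKM. It then stood at 195 and 204 FPKM for the PN14 mice, 203 at PN28 and 236 in adult muscle. On the TMM scale the same libraries gave 101, 113, 138, 120.4, 154 and 196 CPM, an order in which the adult was highest. The direction of the PN2 to PN14 difference of Sod1 therefore rested on the scaling, with 0.19 on the log2 scale under TMM (adjusted p = 0.544) and -0.47 under library size alone (adjusted p = 0.208). From E18.5 to adult Sod1 passed the adjusted p under TMM (0.0231) at 0.96 on the log2 scale, below the 2-fold limit, and was at -0.07 under library size alone.

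Ratios within a library do not depend on the scaling. Sod2 was at 0.107 of Sod1 in FPKM at E18.5 and 0.107 at PN2, and at 0.317 and 0.315 for the PN14 mice, 0.320 at PN28 and 0.272 in adult muscle. As a share of the summed FPKM of the 3 dismutases, Sod2 went from 9.19% at PN2 to 23.2% and 22.7% at PN14, while Sod1 went from 85.6% to 73.1% and 72.3%. The summed FPKM of the family varied little by comparison, from 266 in PN14 replicate 1 to 324 at PN2. The copper chaperone Ccs, which loads Sod1 with its metal, was at 0.105 of Sod1 at PN2, 0.110 and 0.117 at PN14, 0.0809 at PN28 and 0.0374 in adult muscle, the lowest ratio of the 6 libraries.

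Sod3 (chr5:52755185-52762644, plus strand, 2 exons) was the second least abundant enzyme in every library but the adult, where it was the least abundant. Its FPKM were 14.3 at E18.5, 16.9 at PN2, 9.99 and 14.1 for the PN14 mice, 10.4 at PN28 and 6.43 in adult muscle. The PN14 mice lay further apart than the PN28 library lay from the lower of them. The fit gave -0.55 from PN28 to adult (SE 0.216, adjusted p = 0.258), which is not a call. Under library size alone Sod3 fell from E18.5 to adult, by 1.15 on the log2 scale (adjusted p = 0.0124), whereas under TMM the difference was -0.12 (adjusted p = 0.649). Markers of other cell types moved alongside it. The summed FPKM of the 5 endothelial markers were 165 (E18.5), 168 (PN2), 154 and 230 for the PN14 mice, 114 at PN28 and 62.5 in adult muscle, with none at 0. The 4 smooth muscle markers summed to 318, 291, 154, 269, 97.2 and 54.2 FPKM and the 6 fibroblast markers to 6087, 4979, 1732, 2046, 1865 and 516 FPKM in the same order, again with none at 0. Like Sod3, all 3 sums were higher in PN14 replicate 2 than in replicate 1 and lowest in the adult. The macrophage sum (18.4 and 22.15 at PN14, 12.2 in the adult) and the proliferating cell sum (10.5, 26.2 and 0.37) shared both traits. Within the 3 lists, 2 markers departed from them and the others did not. Dcn was at 232 and 283 FPKM at PN14 and 329 in the adult, and Tagln at 46.7 and 44.5 FPKM at PN14. The part of any of these markers in the Sod3 values was not tested.

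**Figure D3:**
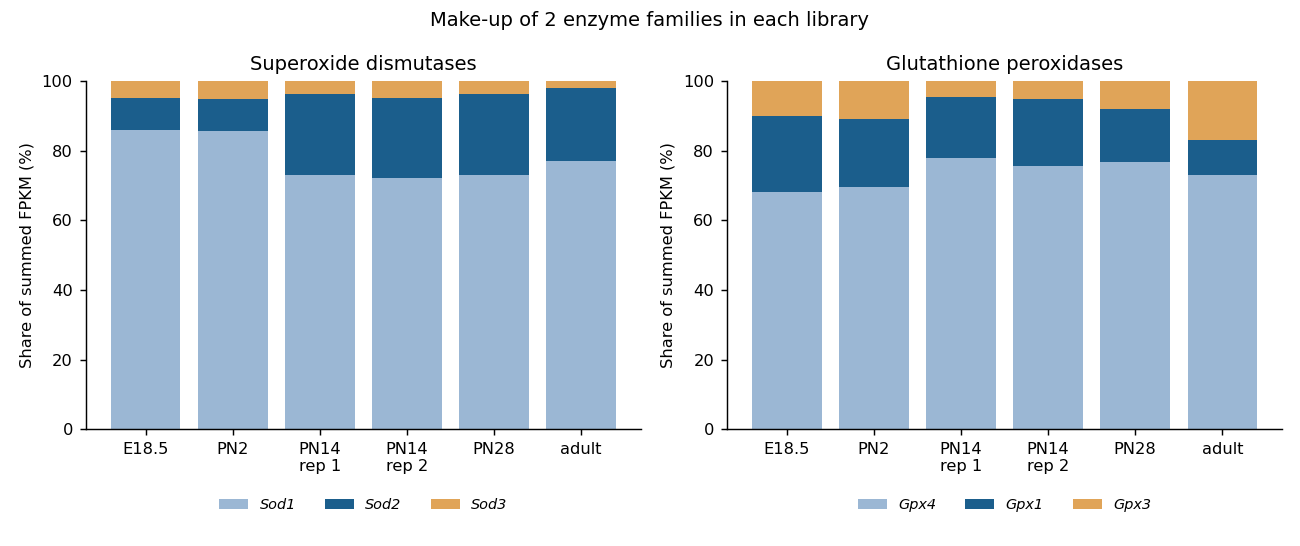
Share of each gene in the summed FPKM of its family (vertical axes, percent) in the 6 libraries, for the 3 superoxide dismutases (left) and the 3 glutathione peroxidases among the enzymes (right). The Sod2 part is 9.23% and 9.19% in the 2 perinatal libraries and 21.0% or more in the others, and the Gpx3 part is narrowest at PN14 and widest in the adult (16.8%).

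The promoters of Sod1 and Sod2 are shown because the ratio of these 2 genes shifted between PN2 and PN14. RefSeq gives windows of 300 bases, from 250 before to 50 after the start of transcription, on GRCm38.p6, a later build than mm9. Capitals mark GC boxes (GGGCGG, bound by SP1) and, in Sod1, a match to the antioxidant response element core (TGACNNNGC, bound by NRF2 with a small MAF protein), both searched on either strand.
Sod1, chr16:90220512-90220811, plus strand: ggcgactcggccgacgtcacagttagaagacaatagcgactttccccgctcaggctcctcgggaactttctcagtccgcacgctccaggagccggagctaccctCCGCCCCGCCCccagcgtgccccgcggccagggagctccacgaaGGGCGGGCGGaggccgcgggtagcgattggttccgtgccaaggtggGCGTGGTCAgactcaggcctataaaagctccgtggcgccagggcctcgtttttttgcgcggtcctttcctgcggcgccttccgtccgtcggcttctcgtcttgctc
Sod2, chr17:13007589-13007888, plus strand: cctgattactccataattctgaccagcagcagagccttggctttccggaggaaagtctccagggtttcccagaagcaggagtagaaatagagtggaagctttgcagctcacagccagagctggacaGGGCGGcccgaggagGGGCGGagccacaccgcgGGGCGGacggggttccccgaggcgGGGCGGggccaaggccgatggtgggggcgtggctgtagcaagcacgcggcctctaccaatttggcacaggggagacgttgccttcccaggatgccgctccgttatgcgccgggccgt
Sod1 has 4 GC box matches in 2 overlapping pairs, of which 1 pair is on the minus strand, and its response element core match lies on the minus strand with its first base 56 bases before the start. Sod2 has 4 separate GC boxes on the plus strand, between 124 and 67 bases before the start, and no match to the response element core. Entries were found for 9 of the 10 enzymes. A GC box was present in a window of each of the 9 and in 11 of their 12 windows, against 35.7% of all 32851 promoter windows. The response element core was present in Sod1 alone of the 9, in 1 of the 12 windows, against 12.4%. No window of the 9 held the half-site of the estrogen-related receptor ERR alpha (AAGGTCA, 4.72% of all windows) or the forkhead core bound by FOXO factors (TGTTTAC, 3.65%). These are matches of letters in short windows and were not set against binding data.

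Cat, the peroxisomal catalase (chr2:103294006-103325317, minus strand, 13 exons), differed between the perinatal libraries. It was at 28.3 FPKM at E18.5 and 57.0 at PN2, then at 44.0 and 51.6 for the PN14 mice, 38.6 at PN28 and 36.2 in adult muscle. E18.5 was the lowest of the 6 libraries and PN2 the highest on this scale. In TMM-normalized CPM Cat went from 48.8 at E18.5 to 98.3 at PN2, and then lay between 123 and 131 in the 4 later libraries. The E18.5 to PN2 difference was 1.01 on the log2 scale under TMM (SE 0.229) and 1.01 under library size alone, with an adjusted p of 0.332 by edgeR's quasi-likelihood test and 0.0461 by its exact test. The E18.5 library was of mixed sex and the PN2 library male, and both were pools. From E18.5 to adult Cat rose by 1.38 on the log2 scale under TMM (SE 0.231, adjusted p = 0.00487), and was at 0.36 under library size alone (adjusted p = 0.401). After PN2 the direction rested on the scaling, with 0.40 from PN2 to PN14 under TMM and -0.25 under library size alone, neither called.

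Blood and fat cell markers moved between E18.5 and PN2 beside Cat, which red blood cells and fat cells also make. The 10 erythroid markers summed to 9107 FPKM at E18.5 and 1593 at PN2, and later to between 398 and 2256. Of these, Hbb-b2 and Hbb-bt are listed with identical values, Hbb-bs was at 0 in every library and Epb4.2 at 0 in 1 library. The 5 adipocyte markers summed to 1.58 FPKM at E18.5, 54.9 at PN2, 15.7 and 14.7 at PN14, 107 at PN28 and 68.9 in adult muscle, and Lep alone of them was at 0, at E18.5. The erythroid sum was highest where Cat was lowest. The adipocyte sum was lower at PN14 than at PN2 and highest at PN28, where Cat was at 38.6 FPKM. Their part in the Cat values was not tested.

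Of 19 other peroxisomal genes listed (import factors and membrane proteins), 4 rose and none fell from PN2 to PN14 (11.8% of all genes rising). From PN2 to PN28 5 rose and none fell (14.3% of all genes rising). The latter included Abcd2, a transporter of very long-chain acyl-CoA, at 3.04 (SE 0.268, adjusted p = 0.00559) and the channel-forming membrane protein Pxmp2 at 2.97 (SE 0.276, adjusted p = 0.00577). The median of the list from PN2 to PN28 was 0.58 on the log2 scale, where Cat was at 0.33 and all genes at -0.04. With library size alone 3 of the 19 rose and 1 fell, and the median was -0.30. On that scale 7151 of the 16882 genes tested were called from PN2 to PN28, of which 852 rose.

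**Figure D4:**
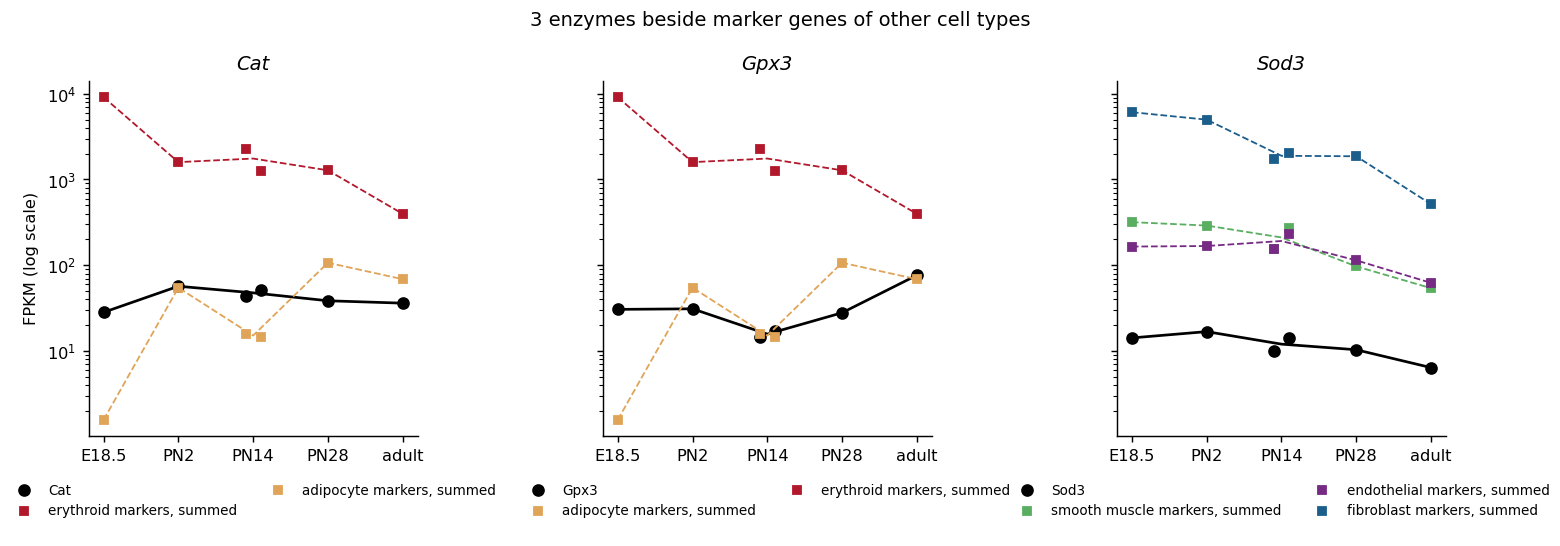
FPKM (log axes) of Cat, Gpx3 and Sod3 (black circles) in the 6 libraries by stage, beside the summed FPKM of marker genes of other cell types (coloured squares); lines join stage means. The adipocyte sum is 1.58 at E18.5 and 54.9 at PN2, and the endothelial, smooth muscle and fibroblast sums are lowest in the adult, as Sod3 is.

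The glutathione peroxidases took 3 different courses. Gpx4, which reduces lipid peroxides within membranes and protects cells from ferroptosis, rose after PN2. Gpx1, the general peroxidase of cytosol and mitochondria, did not reach the 2-fold limit in any comparison. Gpx3, the secreted form found in plasma, was lowest at PN14 and rose between PN28 and adult. All 3, and Txnrd2, are selenoproteins, in which a TGA codon that would otherwise end the protein is read as selenocysteine, the residue at the active site. The codon (capitals) is shown with the 12 bases on each side, read from the coding transcripts of GENCODE M1 on mm9, because it is the feature that these 4 members share and the other 6 lack:
Gpx1, codon 47, chr9:108241782-108241784: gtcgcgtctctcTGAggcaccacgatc
Gpx3, codon 73, chr11:54720758-54720760: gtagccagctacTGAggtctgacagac
Gpx4, codon 129, chr10:79517482-79517484: gtggcctcgcaaTGAggcaaaactgac
Txnrd2, codon 523, chr16:18477865-18477867: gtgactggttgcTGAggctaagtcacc
In all 4 the codon lies in frame before the stop. It is codon 47 of 202 in Gpx1, 73 of 227 in Gpx3, 129 of 254 in Gpx4 and 523 of 525 in Txnrd2 (stop codons included). These numbers hold for the transcript with the longest coding sequence of each gene (Gpx4-002 for Gpx4), and can differ in other transcripts. The coding transcripts of Cat, Sod1, Sod2, Sod3, Prdx3 and Prdx5 had 0 TGA codons in frame before the stop.

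Gpx4 (chr10:79509911-79519184, plus strand, 7 exons in the transcript shown) was at 207 FPKM at E18.5, 199.7 at PN2, 255 and 250.15 for the PN14 mice, 268 at PN28 and 332 in adult muscle. It was the second most abundant enzyme in both perinatal libraries and the most abundant in the 4 later ones. The rise from PN2 to PN14 was 1.004 on the log2 scale (SE 0.281, adjusted p = 0.0426), from 122 to 244 ± 34.1 CPM (SD, n = 2), and sits at the 2-fold limit: with DESeq2's size factors it was 0.99. From PN2 to PN28 it rose by 1.31 (SE 0.315, adjusted p = 0.0274) and from E18.5 to adult by 1.71 (SE 0.318, adjusted p = 0.00681). Under library size alone these were 0.34, 0.43 and 0.68, all positive and none called.

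Gpx1 (chr9:108241607-108242671, plus strand, 2 exons) was at 66.3 FPKM at E18.5, 56.3 at PN2, 57.7 and 63.6 for the PN14 mice, 52.9 at PN28 and 46.1 in adult muscle. Its FPKM thus stayed within a narrow band that includes the difference between the PN14 mice, with the adult lowest. From PN2 to PN14 the TMM log2 fold change was 0.76 (SE 0.184, adjusted p = 0.0284), under the 2-fold limit, and 0.11 under library size alone. Set against Gpx1 in the same library, Gpx4 was 3.13-fold as high in FPKM at E18.5, 3.55 at PN2, 4.42 and 3.94 at PN14, 5.07 at PN28 and 7.20 in adult muscle.

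Gpx3 (chr11:54715955-54723879, plus strand, 5 exons) had the widest range of the 10 enzymes, 5.27-fold in FPKM and 6.33-fold in TMM-normalized CPM. It was at 30.7 FPKM at E18.5 and 31.1 at PN2, at 14.5 and 17.1 for the PN14 mice, at 27.99 at PN28 and at 76.6 in adult muscle. Both PN14 mice were below every other library, and the adult was above all. The rise from PN28 to adult was 1.59 on the log2 scale (SE 0.203, adjusted p = 0.0499), from 52.3 to 157 CPM, and 1.45 under library size alone (adjusted p = 0.00591). From PN14 to PN28 it was higher by 1.06 (SE 0.167), which edgeR's quasi-likelihood test did not call (adjusted p = 0.253) and DESeq2's Wald test did (adjusted p = 0.0216). From PN2 to PN14 the difference was -0.32 under TMM (adjusted p = 0.189), and -0.98 under library size alone (adjusted p = 0.00846, just under 2-fold). Relative to Gpx1 in the same library, Gpx3 was at 0.553 at PN2, 0.252 and 0.269 at PN14, 0.529 at PN28 and 1.66 in adult muscle, the only library in which it exceeded Gpx1.

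Like Gpx3, the adipocyte sum was lower at PN14 than at PN2 and PN28, with 54.9 FPKM at PN2, 15.7 and 14.7 at PN14 and 107 at PN28. Its PN28 value, of which Cfd made up 74.3, was above PN2, whereas Gpx3 was at 27.99 FPKM at PN28 and 31.1 at PN2. Of the 5 markers Lep alone was not lower at PN14, with 0.18 FPKM at PN2 and 0.83 and 0.33 at PN14. At the ends the sum also differed from Gpx3. It was at 1.58 FPKM at E18.5, where Gpx3 was near its PN2 level, and at 68.9 FPKM in the adult, where Gpx3 was highest. Between PN28 and adult no adipocyte marker was called and the erythroid sum went from 1279 to 398 FPKM. Whether fat cell RNA takes part in the Gpx3 values was not tested.

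The 3 mitochondrial members other than Sod2 stepped up together with it between PN2 and PN14. Prdx3, the peroxiredoxin of the matrix (chr19:60939954-60950459, minus strand, 7 exons), was at 62.9 FPKM at E18.5, 67.7 at PN2, 128 and 125 for the PN14 mice, 118 at PN28 and 113 in adult muscle. The 2 perinatal libraries lay below the 4 later ones without overlap. The rise from PN2 to PN14 was 1.57 on the log2 scale (SE 0.261, adjusted p = 0.0112), from 64.9 to 193 ± 27.99 CPM (SD, n = 2). With library size alone it was 0.91 (adjusted p = 0.0168), under the 2-fold limit.

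Prdx5, a peroxiredoxin of mitochondria, peroxisomes and cytosol (chr19:6981187-6984596, minus strand, 6 exons), was at 107 FPKM at E18.5, 108 at PN2, 168 and 171 for the PN14 mice, 139.9 at PN28 and 135 in adult muscle. It was highest at PN14 in FPKM, and in TMM-normalized CPM the 4 later libraries lay between 108 and 127. Its PN2 to PN14 rise was 1.32 on the log2 scale (SE 0.220, adjusted p = 0.0112), with 0.66 under library size alone (adjusted p = 0.0835). Its exons share 409 bases, 19.1% of all its exonic bases in GENCODE M1, with Trmt112 on the opposite strand. Strand use in the counting is not given in the sources used here, so reads from these bases cannot be told apart. In FPKM, which are not adjusted for a few abundant genes, Trmt112 was at 28.2 at PN2 and at 25.0 and 27.2 for the PN14 mice. Prdx5 was at 108 and then at 168 and 171 on the same scale. The part of Trmt112 reads in the Prdx5 values was not tested.

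Txnrd2, the thioredoxin reductase of mitochondria (chr16:18426510-18479166, plus strand, 18 exons), was the least abundant enzyme in every library but the adult. It was at 6.06 FPKM at E18.5, 5.68 at PN2, 8.48 and 7.89 for the PN14 mice, 8.86 at PN28 and 10.1 in adult muscle, with the perinatal pair below the rest. It rose by 1.20 on the log2 scale from PN2 to PN14 (SE 0.230, adjusted p = 0.0159) and by 1.53 from PN2 to PN28 (SE 0.257, adjusted p = 0.0119), with 0.53 and 0.64 under library size alone, neither called.

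Markers of cell make-up moved over the same interval as the 4 mitochondrial enzymes and Gpx4. The 6 muscle fibre markers summed to 35563 FPKM at PN2 and to 120464 and 99254 FPKM at PN14. Their median log2 fold change was 2.39 under TMM, where none of the 6 was called. The 6 fibroblast markers summed to 4979 FPKM at PN2 and to 1732 and 2046 at PN14, also with none called under TMM. With library size alone 5 of the 6 fibre markers rose and 4 of the 6 fibroblast markers fell. On that scale 5825 of the 16882 genes tested were called, of which 854 rose. The 5 markers of proliferating cells summed to 84.8 FPKM and then to 10.5 and 26.2, and all 5 fell. No marker of these 3 lists was at 0 in any library. Their part in the rise of the enzymes was not tested.

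To set these enzymes beside other mitochondrial mRNAs, 18 other nuclear-encoded mitochondrial genes were followed (TCA cycle enzymes, respiratory chain subunits, chaperones and membrane proteins). Their total was 3840 FPKM at E18.5, 4564 at PN2, 8400 and 8574 for the PN14 mice, 7094 at PN28 and 6234 in adult muscle. From PN2 to PN14 10 of the 18 rose and none fell (11.8% of all genes rising), with a median log2 fold change of 1.54. Sod2 (1.74) was exceeded by 4 of them, Prdx3 (1.57) by 8, Prdx5 (1.32) by 13 and Txnrd2 (1.20) by 14, so in this interval the enzymes lay within the range of the reference genes. Per 1000 FPKM of the reference sum, Sod2 was at 6.51 at PN2 and at 7.34 and 7.49 at PN14, and Prdx3 at 14.8 and then at 15.3 and 14.6. On the same measure Prdx5 was lower at PN14, with 23.6 at PN2 and 20.03 and 19.9 for the PN14 mice. Txnrd2 was lower there too, with 1.24 at PN2 and 1.01 and 0.920 at PN14.

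After PN14 Sod2 had its highest values on this measure. Sod2 per 1000 FPKM of the reference was 9.16 at PN28 and 10.3 in adult muscle, above the 7.34 and 7.49 of the PN14 mice. Prdx3 was at 16.6 and 18.2, where E18.5 had 16.4. Txnrd2 was at 1.25 and 1.62, close to its perinatal values of 1.58 at E18.5 and 1.24 at PN2. From PN14 to PN28 none of the 18 reference genes had a larger log2 fold change than Sod2 (0.27) or Txnrd2 (0.33), while 4 exceeded Prdx3 (0.11) and 13 exceeded Prdx5 (-0.05), with a reference median of 0.01. From PN28 to adult 5 of them exceeded Sod2, 7 exceeded Prdx3, 7 exceeded Prdx5 and 1 exceeded Txnrd2. None of the 4 enzymes was called in either interval. From PN2 to PN28 the reference genes that rose most were Sdhb of complex II, by 2.12 (SE 0.372, adjusted p = 0.0130), and Idh3g of the TCA cycle, by 2.00 (SE 0.368, adjusted p = 0.0145), where Sod2 rose by 2.02. Prdx5 took another course, from 27.96 per 1000 at E18.5 to between 19.7 and 21.6 from PN14 on. The differences of these ratios between stages were not tested, since PN14 alone has replicates.

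**Figure D5:**
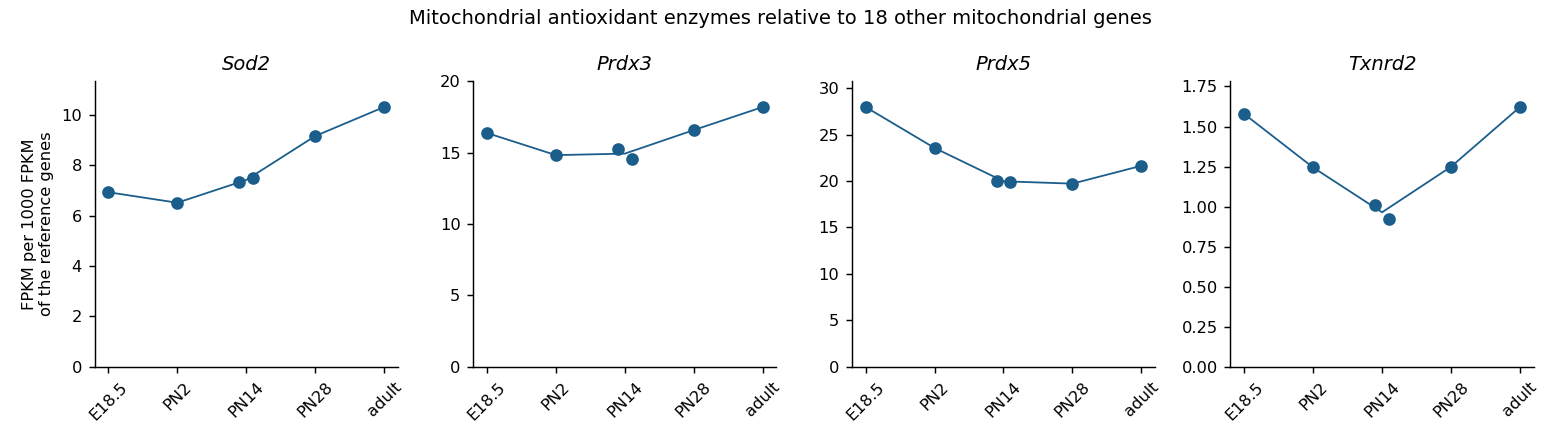
FPKM of the 4 mitochondrial enzymes per 1000 FPKM of 18 other mitochondrial genes (vertical axes, from 0) in the 6 libraries by stage; lines join stage means. Sod2 is between 6.51 and 7.49 up to PN14 and reaches 10.3 in the adult, Txnrd2 is lowest at PN14, and Prdx5 is highest at E18.5 (27.96).

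The order of the enzymes by FPKM differed between stages. At PN2 it was Sod1, Gpx4, Prdx5, Prdx3, Cat, Gpx1, Gpx3, Sod2, Sod3 and Txnrd2. In both PN14 libraries and at PN28 it was Gpx4, Sod1, Prdx5, Prdx3, Sod2, Gpx1, Cat, Gpx3, Sod3 and Txnrd2, with Sod2 moved from the eighth place to the fifth. Of these neighbours at PN14, Sod2 at 62.9 ± 1.80 and Gpx1 at 60.6 ± 4.18 FPKM (SD, n = 2) differed by less than the sum of their SDs, as did Gpx3 at 15.8 ± 1.80 and Sod3 at 12.1 ± 2.93. Gpx4 at 252 ± 3.29, Sod1 at 199 ± 6.63, Prdx5 at 169 ± 1.77 and Prdx3 at 127 ± 2.34 were separated by more, as were the other neighbouring pairs. In the adult Gpx3 had moved up to the fifth place and Txnrd2 stood above Sod3. The summed FPKM of the 10 enzymes were 797 at E18.5, 849 at PN2, 942 and 969 at PN14, 933 at PN28 and 1056 in adult muscle.

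Partners of these enzymes were read from lists of the same pathways, whose counts from PN2 to PN28 stand beside the 14.3% of all genes that were called as rising. Their counts with library size alone stand beside 7151 of the 16882 genes called on that scale, of which 852 rose. Of 15 further peroxiredoxin, thioredoxin and methionine sulfoxide reductase genes, 7 rose and 1 fell from PN2 to PN28, with a median of 0.97 (3 and 2 with library size alone, median 0.08). The methionine sulfoxide reductases Msrb1, itself a selenoprotein, and the mitochondrial Msrb2 rose most, by 2.78 (SE 0.240, adjusted p = 0.00551) and 2.69 (SE 0.379, adjusted p = 0.00876). Prdx4, the peroxiredoxin of the endoplasmic reticulum, fell by 1.59 on the log2 scale (SE 0.286, adjusted p = 0.0137), from 73.9 FPKM at PN2 to 13.3 at PN28, in contrast to Prdx3 and Prdx5. Txn2, the mitochondrial thioredoxin that reduces Prdx3, was at 109 FPKM at PN2, 197 and 229.7 for the PN14 mice, 164 at PN28 and 124 in adult muscle. Relative to Prdx3 it was at 1.61 at PN2, 1.54 and 1.84 at PN14, 1.39 at PN28 and 1.09 in adult muscle.

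Glutathione is the reductant of the Gpx enzymes. Of 23 genes of its synthesis and use, 22 passed the filter, and from PN2 to PN28 13 rose and none fell (5 and 3 with library size alone). Those that rose most at 10 CPM or more were transferases: Gstk1 of mitochondria and peroxisomes by 3.32 (SE 0.390, adjusted p = 0.00703) and the microsomal Mgst3 by 2.47 (SE 0.486, adjusted p = 0.0166). The enzymes that make and recycle glutathione were not among the calls, with Gclc, which starts its synthesis, at a TMM log2 fold change of 0.16 from PN2 to PN28 (adjusted p = 0.595), and Gsr, which reduces the oxidized form, at -0.10 (adjusted p = 0.762). In FPKM, which are not adjusted for a few abundant genes, Gclc went from 5.03 to 3.03 and Gsr from 17.1 to 8.65.

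NADPH feeds both glutathione and thioredoxin. Of 7 genes listed for its supply in mitochondria, 2 rose from PN2 to PN28, Me3 (3.89, SE 0.250, adjusted p = 0.00539) and Aldh4a1 (2.08, SE 0.309, adjusted p = 0.00955). Aldh4a1, an enzyme of proline breakdown, yields NADH rather than NADPH, so a place in this list does not by itself mark a source of NADPH. Me2 fell, by 1.11 on the log2 scale (SE 0.269, adjusted p = 0.0284), so the malic enzymes Me3 and Me2 moved in opposite directions. The more abundant Idh2 and Nnt were not called, at TMM log2 fold changes of -0.53 (adjusted p = 0.239) and -0.18 (adjusted p = 0.645). With library size alone 2 of the 7 rose and 3 fell.

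The metals and selenium that the enzymes carry are handled by 14 listed genes, of which 2 rose and 1 fell from PN2 to PN28 with a median of 0.12 (0 and 4 with library size alone, median -0.77). The 2 of 14 that rose are a share near that of all genes. They were Sephs2, which makes the activated selenium donor, by 1.06 (SE 0.220, adjusted p = 0.0189), and Pstk, the kinase that prepares the selenocysteine tRNA, by 1.01 (SE 0.203, adjusted p = 0.0176). The fall was in Lrp8, a receptor for selenoprotein P, from 0.45 to 0.06 FPKM.

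NRF2 (Nfe2l2) is the factor best known for switching on antioxidant genes under stress. Among 15 of its targets and regulators, 6 rose and 2 fell from PN2 to PN28 (2 and 6 with library size alone). Me1, a cytosolic source of NADPH, rose by 2.78 (SE 0.537, adjusted p = 0.0159) and the autophagy receptor Sqstm1 by 1.86 (SE 0.456, adjusted p = 0.0290). Slc7a11, the cystine importer, fell by 1.83 on the log2 scale (SE 0.304, adjusted p = 0.0114) and the heme oxygenase Hmox1 by 1.07 (SE 0.278, adjusted p = 0.0334). Nfe2l2 itself was not called, and its direction from PN2 to PN28 rested on the scaling, with 0.46 under TMM (adjusted p = 0.128) and -0.43 under library size alone. The list thus held genes that moved both ways.

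Of 11 regulators tied to these enzymes, 3 rose and none fell from PN2 to PN28: the nuclear receptor Esrra by 1.71 (SE 0.224, adjusted p = 0.00790), the mitochondrial deacetylase Sirt3 by 1.24 (SE 0.193, adjusted p = 0.0103), and by 1.12 the coactivator Ppargc1a, which partners Esrra in mitochondrial gene expression. The forkhead factors Foxo1 and Foxo3 were not called. With library size alone none of the 11 rose and 3 fell.

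The genes whose course over the 6 libraries was most like that of the enzymes were ranked by the root mean square difference of centred log2 CPM, among the 8839 genes averaging 10 CPM or more, for the 3 enzymes with the widest range. For Sod2 they were Ndufb4, a subunit of respiratory complex I, at 0.0567, 0610009O20Rik at 0.0649 and Cgrrf1 at 0.0653. For Prdx3 they included Lactb2 at 0.0394 and Atp6v1g1, a subunit of the vacuolar proton pump, at 0.0530. For Gpx3 the nearest genes were farther away, with Kif3c at 0.201, Sorbs2 at 0.217 and Celsr2 at 0.221. With 6 libraries many genes can share a course, and these lists are descriptions.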

How the data were processed

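Polyadenylated RNA of gastrocnemius muscle was sequenced in 6 libraries. The authors aligned paired-end reads to mm9 with TopHat2 2.0.5, and fragments were assigned to RefSeq models by RSEM. The expected counts deposited by the authors are not normalized. The deposited FPKM were made by the authors with RSEM and are scaled to gene length and library size. Column names place every library on a lane of its own, so lane and stage cannot be told apart.

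Expected counts were rounded and fitted in R 4.3.3 with edgeR 4.0.16 (TMM, filterByExpr, quasi-likelihood test, all 6 libraries, 5 stages as groups, 1 residual degree of freedom, common biological coefficient of variation 0.188). Adjusted p-values are Benjamini-Hochberg over the 16882 genes tested, per comparison, and SE is the log2 fold change over the square root of F. For 2-fold counts, 0.1 CPM was added and 1 CPM required at either stage. A count of 3 was between 0.0190 and 0.0239 CPM. p-values measure only the spread between the PN14 mice. Tested on simulated data, the fit recovered most changes, with a share of false calls above the 0.05 it was set to. The simulation changed a small set of genes, as many up as down, so it did not test the choice of scaling. Alternatives were library size alone, DESeq2 1.42.0 (size factors, Wald test), edgeR's exact test, no filter, a pseudocount of 1 and leaving out either PN14 replicate.

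The enzymes and the 19 lists (197 of 198 entries found) were chosen with earlier results of these data known. From each list, the 2 genes that rose and the 2 that fell most among those called from PN2 to PN28 at 10 CPM or more are named; for the likeness of patterns, the 3 nearest genes. Any other gene named was chosen after its values were seen. A few genes that the rule names are not reported here. Positions, overlaps and codons are from GENCODE M1 (mm9), read with Python 3.11.15, pandas 2.3.3 and numpy 2.4.6; figures were drawn with matplotlib 3.10.9.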

Additional observations from a re-analysis of the deposited data

How the results depend on the processing

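Of the 60 log2 fold changes (10 enzymes in 6 comparisons), 59 kept their direction and their side of the thresholds with DESeq2's size factors and with no filter, and 58 with DESeq2's Wald test and with edgeR's exact test; all 20 that involve PN14 kept their direction without PN14 replicate 1 and without replicate 2. Library size alone kept 29, turned 17, ended 13 calls and made 1. No turned value was called: from PN2 to PN14 Cat -0.25, Sod1 -0.47 and Sod3 -0.48; from PN14 to PN28 Sod3 -0.22, Gpx1 -0.20 and Prdx3 -0.11; from PN28 to adult Cat -0.094, Sod2 -0.016, Prdx3 -0.053 and Prdx5 -0.054; from PN2 to PN28 Cat -0.56, Sod1 -0.45, Sod3 -0.70, Gpx1 -0.089 and Gpx3 -0.15; from E18.5 to adult Sod1 -0.069 and Gpx1 -0.52. Enzymes called with library size alone numbered 1 from PN2 to PN14, 1 from PN2 to PN28 (5 with TMM in each) and 3 from E18.5 to adult (7 with TMM). Of the 16882 genes tested, library size alone called 5825, 7151 and 9047 in these comparisons, of which 854, 852 and 1347 rose. The 2-fold counts of enzymes without a test became 1, 1 and 3, and 0 in place of 1 from PN14 to PN28. From E18.5 to PN2 the exact test called 1 enzyme in place of 0, and a pseudocount of 1 gave 0 in place of 1 at 2-fold. From PN14 to PN28 the Wald test and the exact test each called 1 in place of 0. Without PN14 replicate 1 or 2 the 2-fold count was 3 or 5 in the PN2 to PN14 interval and 1 in the next. The scaling differs by construction; the cause of the other differences was not tested. Every enzyme had at least 1651 counts in every library, and 4 of the 5 stages have a single library.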

Other observations

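Among 9 other selenoproteins tested, 3 rose and 1 fell from PN2 to PN28 (1 and 3 with library size alone), where 14.3% of all genes were called as rising. With library size alone 7151 of the 16882 genes tested were called, of which 852 rose, here and for the lists below. Sepw1, a small muscle selenoprotein, rose by 2.60 (SE 0.432, adjusted p = 0.0114) and the endoplasmic reticulum protein Selt by 1.51 (SE 0.275, adjusted p = 0.0141), while Sepn1, whose loss causes a congenital myopathy, fell by 1.27 on the log2 scale (SE 0.290, adjusted p = 0.0243). Sepw1 was at 259 FPKM at E18.5, 241 at PN2, 774 and 670.2 for the PN14 mice, 793 at PN28 and 1036 in adult muscle, above Gpx4, the most abundant selenoprotein among the 10 enzymes, in every library. Sepn1 was at 28.8, 22.2, 5.41, 9.24, 4.98 and 2.26 FPKM in the same order.

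Of 14 genes that produce superoxide or peroxide, 2 rose and 1 fell from PN2 to PN28 (1 and 5 with library size alone), a rising share near the 14.3% of all genes, with a median of -0.24 on the log2 scale where all genes had -0.04. Xdh, the xanthine oxidoreductase, rose by 4.14 (SE 0.562, adjusted p = 0.00843), from 0.51 FPKM at PN2 to 1.88 and 1.05 at PN14, 4.83 at PN28 and 5.89 in adult muscle. Of 6 metallothioneins and sestrins, 1 rose and 1 fell from PN2 to PN28 (0 and 3 with library size alone). Mt2 fell by 1.80 on the log2 scale (SE 0.391, adjusted p = 0.0210), from 32.1 FPKM at PN2 to 4.97 at PN28. Of the cell type markers, Ccnb1 and Cdk1 of proliferating cells fell from PN2 to PN28, by 2.48 and 2.05 on the log2 scale (adjusted p = 0.0210 and 0.0253), and Cfd and Cidec of fat cells rose, by 2.89 and 1.67 (adjusted p = 0.00539 and 0.0456). The 5 markers of proliferating cells summed to 84.8 FPKM at PN2, 10.5 and 26.2 at PN14 and 0.37 in the adult, and macrophage markers to 39.1, 18.4, 22.15 and 12.2.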
